A study of Homo sapiens with 6 samples.

Results

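The genes examined here encode 10 proteins used as markers of extracellular vesicles (EVs) or needed to form and release them: CD63, CD81, CD9, CD82, SDCBP, PDCD6IP, TSG101, FLOT1, RAB27A and SMPD3. They were taken by name, with earlier results of these data known. No measured value entered the choice of a probe set: every probe set listed with exactly 1 symbol that is one of these genes was kept. This gave 11 probe sets of 9 genes, out of 19460 probe sets and 18417 genes with a single symbol on the array. PDCD6IP, which encodes the ESCRT accessory protein ALIX, had no probe set listed with its symbol in the annotation used here and was not analysed. A further 0 of the probe sets with several symbols held one of the 10 names. FLOT1 had 3 probe sets, listed with the same accessions, and their values were equal on every array (largest difference 0), so they were counted as 1 measurement.

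RNA was measured in EVs of JinB8 cells, a CD47-deficient mutant of the Jurkat T cell leukemia line labelled CD47_mut (CD47- EVs, n = 3 arrays), and in EVs of the parental Jurkat cells labelled CD47_WT (WT EVs, n = 3 arrays). No sample received a treatment, and both cell lines were kept in the same serum-free medium before the EVs were isolated. The submitters name a pair of isolation kits without saying which preparation had which. JinB8 is a single mutant line, so the loss of CD47 and other differences between the lines cannot be told apart. The labels call the preparations cell culture replicates, and p values measure the spread between these arrays, which may be technical.

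EVs arise by several routes. Exosomes bud into late endosomes and are set free when these fuse with the plasma membrane, and other vesicles are pinched off from the plasma membrane itself. Tetraspanins are membrane proteins that gather partner proteins into patches and are the usual surface markers of EVs. Inside the endosome the ESCRT complexes, the adaptor syntenin with ALIX, and the lipid ceramide each help membranes bud inward, and Rab GTPases then carry and dock the loaded endosomes. These proteins are studied in EVs as proteins. The arrays measured something else, the mRNAs for them carried in EV RNA.

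The values are log2 values made by robust multi-array average (RMA), a procedure that subtracts background and gives all arrays nearly the same distribution. The values thus compare mRNAs relative to the other RNA of the same preparation, and fewer EVs carrying an mRNA cannot be told apart from fewer copies per EV. The median over all probe sets lay between 5.08 and 5.14 on the 6 arrays. The deposited values have no detection calls, so 338 olfactory receptor genes, silent in most tissues outside the nose, served as a rough gauge of background (the gauge genes). A percentage of gauge genes given below is the share of them with a lower mean. They had a median of 5.49 and a 95th percentile of 6.79. Of 14 measured T cell identity genes, 10 averaged above this median and 2 above this 95th percentile. Their summed unlogged values were 1188 to 1246 in CD47- EVs and 987 to 1079 in WT EVs. These sums include CD1E, with log2 values of 7.18, 7.26 and 7.61 in CD47- EVs, against 6.08, 6.29 and 6.19 in WT EVs. The log2 difference of CD1E, 1.16, was the largest of the 14, whose median difference was 0.07. Of 26 measured marker genes of platelets, B cells, monocytes, epithelial and erythroid cells, 1 averaged above the 95th percentile of the gauge. Above the median of the gauge were 4 of 7 platelet, 2 of 5 B cell, 2 of 5 monocyte, 3 of 6 epithelial and 2 of 3 erythroid genes. Over all 18417 genes, 7222 averaged above this median and 864 above the 95th percentile. CD47 itself had log2 values of 4.58, 4.67 and 4.94 in CD47- EVs, against 4.72, 4.69 and 4.72 in WT EVs. It lay above 23.7% of the gauge genes, and it does not check the labels.

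None of the 9 measured vesicle genes passed the test between CD47- and WT EVs in either direction (limma, adjusted p under 0.05 over all 18417 genes). Over all genes, 123 were higher, which is 0.668%, and 3 were lower, which is 0.0163%. Before adjustment, 1 of the 9, SDCBP, was higher at a p under 0.05 and 0 were lower, where 5.16% of all genes were higher and 2.87% were lower. The median difference between CD47- and WT EVs was 0.07 on the log2 scale over the 9 genes and 0.0029 over all genes. The CD47- mean was the higher one for 7 of the 9, and for 9444 of all 18417 genes. Apart from SDCBP, the 95% intervals of the fold change in the array values reached at most 1.25 upward and 0.847 downward. TSG101, FLOT1, RAB27A and SMPD3 had means below the median of the gauge, and RMA compresses differences of dim probe sets. For these genes the intervals set no bound on a change in the mRNA itself.

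**Figure D1:**
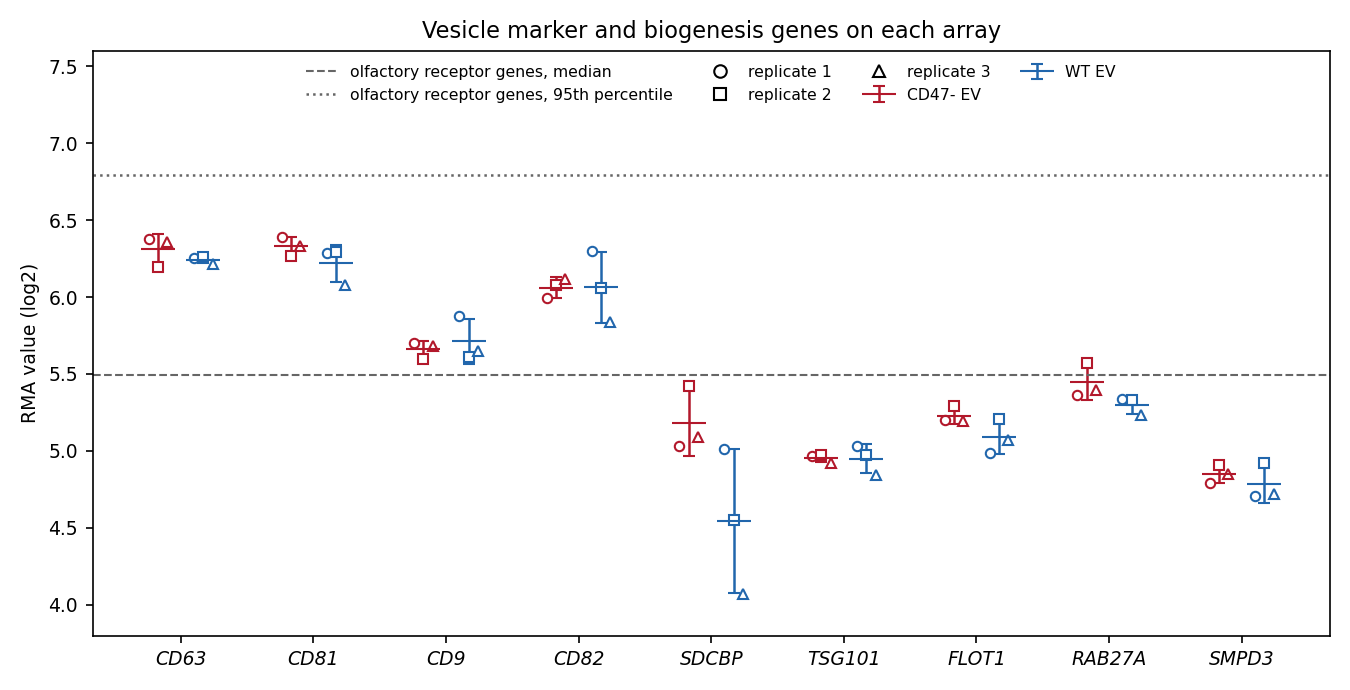
RMA values (log2, vertical axis) of the 9 measured genes on each array of CD47- EVs (red) and WT EVs (blue), with the mean and SD of each group (bars, n = 3) and 1 symbol shape per replicate number. Dashed and dotted lines give the median (5.49) and the 95th percentile (6.79) of the gauge genes. All values lie under the dotted line, the 4 tetraspanins lie above the dashed line, and the WT arrays of SDCBP are spread the most.

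The 4 tetraspanins were the only members with a mean above the median of the olfactory receptor genes, and they were above it on all 6 arrays. A mean above this median was also found for 7222 of all 18417 genes and for 19 of the 32 measured tetraspanin genes. None of the 9 genes reached the 95th percentile of the gauge on any array. CD63, a tetraspanin of late endosomes and lysosomes, had log2 values of 6.38, 6.19 and 6.36 in CD47- EVs, against 6.25, 6.26 and 6.22 in WT EVs. The WT values lay within the range of the CD47- values, so the groups overlapped. It lay above 81.4% of the gauge genes. The log2 difference was 0.07 (95% interval -0.10 to 0.24, adjusted p = 0.92 from limma).

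CD81, which is found mostly at the plasma membrane and is also part of the B cell co-receptor, had log2 values of 6.39, 6.27 and 6.33 in CD47- EVs, against 6.28, 6.29 and 6.08 in WT EVs. Only WT replicate 3 lay below all CD47- arrays. Its log2 difference was 0.11 (95% interval -0.07 to 0.29, adjusted p = 0.843 from limma), and it lay above 81.4% of the gauge genes. Without WT replicate 3 the difference was 0.04.

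CD9, a tetraspanin of the plasma membrane with roles in cell adhesion and fusion, had log2 values of 5.70, 5.60 and 5.68 in CD47- EVs, against 5.88, 5.61 and 5.65 in WT EVs. WT replicate 1 was the highest and the other arrays lay within 0.10 of each other. The log2 difference was -0.05 (95% interval -0.24 to 0.14, adjusted p = 0.949 from limma) and was 0.03 without WT replicate 1. It lay above 57.7% of the gauge genes.

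CD82, known as a suppressor of metastasis and a costimulatory protein of T cells, had log2 values of 5.99, 6.08 and 6.12 in CD47- EVs, against 6.30, 6.06 and 5.83 in WT EVs. The CD47- arrays fell inside the wider span of the WT arrays, whose SD of 0.23 was larger than that of 96.0% of all genes. The means were nearly equal, with a log2 difference of -0.0016 (95% interval -0.23 to 0.23, adjusted p = 0.999 from limma). It lay above 73.7% of the gauge genes. Leaving out WT replicate 1 gave 0.12 and leaving out WT replicate 3 gave -0.12.

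SDCBP, which encodes syntenin-1, the adaptor that joins syndecans and CD63 to ALIX, had the largest difference of the 9. Its log2 values were 5.03, 5.42 and 5.09 in CD47- EVs, against 5.01, 4.55 and 4.07 in WT EVs. All CD47- arrays lay above all WT arrays, but the gap between the lowest CD47- and the highest WT array was 0.02 while the WT arrays spanned 0.94. Its mean was 5.18 ± 0.21 (SD, n = 3) in CD47- EVs and 4.54 ± 0.47 (SD, n = 3) in WT EVs. The WT SD was larger than that of 99.9% of all genes, and 17 genes had a larger one.

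The log2 difference of SDCBP was 0.64 (95% interval 0.23 to 1.04), a 1.55-fold higher mean in CD47- EVs, and did not pass (unadjusted p = 0.00475, adjusted p = 0.235 from limma). This difference was higher than that of 99.6% of all genes. The difference was 0.87 without WT replicate 1, when it passed (adjusted p = 0.0276 from limma), and 0.40 without WT replicate 3 (adjusted p = 0.561 from limma). It also passed when each array was centered on its olfactory receptor genes, with a difference of 0.70 (adjusted p = 0.0206 from limma). On their own, these genes had a median of 5.39 to 5.52 on the CD47- arrays and 5.48 to 5.55 on the WT arrays. Of the 338, 102 had a difference above 0. Before adjustment, 4 of them were higher and 33 lower at a p under 0.05, where 5.16% of all genes were higher and 2.87% lower. After adjustment, 0 of them were higher and 0 lower. The median difference of the genes used for the centering was -0.05, beside 0.0029 over all genes. SDCBP lay above 28.7% of the gauge genes, and on the 6 arrays its value was above that of 17.7% to 58.2% of all genes.

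**Figure D2:**
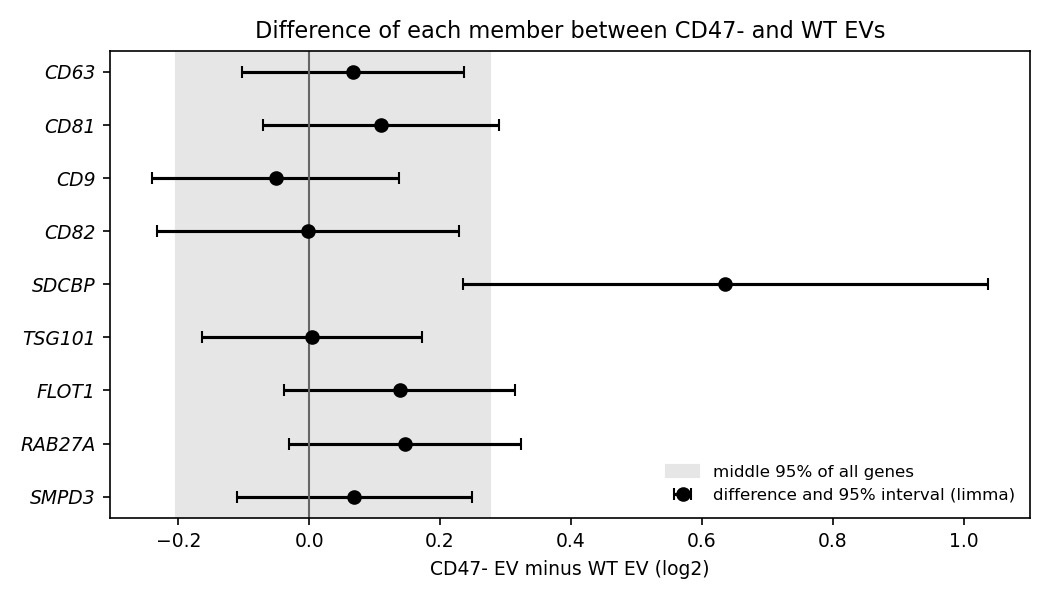
log2 difference between CD47- and WT EVs (horizontal axis) of the 9 measured genes, with 95% intervals from limma, beside the middle 95% of all genes (grey, -0.20 to 0.28). The 8 genes other than SDCBP lie inside the grey band with intervals that include 0, and SDCBP lies at 0.64 with an interval of 0.23 to 1.04.

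TSG101, the ESCRT-I subunit that recognizes ubiquitinated cargo and is recruited by HIV Gag, showed the smallest spread among the CD47- arrays. Its log2 values were 4.97, 4.97 and 4.92 in CD47- EVs, against 5.03, 4.98 and 4.84 in WT EVs. The WT arrays lay on both sides of the CD47- arrays, and the difference was 0.0039 (95% interval -0.16 to 0.17, adjusted p = 0.998 from limma). The 95% interval of the fold change in its array values ran from 0.892 to 1.13. TSG101 lay above 32.2% of the gauge genes, and so below their median, and RMA compresses differences of dim probe sets. The interval therefore sets no bound on a change in the mRNA itself.

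FLOT1, which encodes a scaffold protein of lipid rafts, had log2 values of 5.20, 5.29 and 5.19 in CD47- EVs, against 4.99, 5.21 and 5.07 in WT EVs. WT replicate 2 lay within the CD47- range and the other WT arrays lay below it. The log2 difference was 0.14 (95% interval -0.04 to 0.31, adjusted p = 0.75 from limma). It lay above 39.9% of the gauge genes.

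RAB27A, a Rab GTPase that docks secretory organelles at the plasma membrane and is needed for granule release by cytotoxic T cells, had log2 values of 5.37, 5.57 and 5.40 in CD47- EVs, against 5.34, 5.33 and 5.23 in WT EVs. All CD47- arrays lay above all WT arrays, by 0.03 at the nearest pair. The log2 difference was 0.15 (95% interval -0.03 to 0.32, adjusted p = 0.734 from limma). It lay above 47.0% of the gauge genes, and CD47- replicate 2 was the only array on which it exceeded their median.

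SMPD3, the neutral sphingomyelinase that makes ceramide at membranes and is the target of the EV inhibitor GW4869, lay above 26.3% of the gauge genes. Its log2 values were 4.79, 4.91 and 4.85 in CD47- EVs, against 4.71, 4.92 and 4.72 in WT EVs. The highest and the lowest value were both WT arrays. The log2 difference was 0.07 (95% interval -0.11 to 0.25, adjusted p = 0.923 from limma).

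Among the 9 genes, SDCBP and RAB27A were the 2 whose groups did not overlap, with the CD47- arrays above. In all, 7.3% of genes did not overlap with the CD47- arrays above and 5.53% with the CD47- arrays below. WT replicate 3 was the lowest WT array for 6 of the 9 genes and for 46.3% of all genes. Calls were also counted by level. Of 6358 genes with a mean between the median and the 95th percentile of the gauge, where the 4 tetraspanins lie, 46 were higher, which is 0.723%. Of 11195 genes at or below this median, where the other 5 members lie, 17 were higher, which is 0.152%.

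The genes around these members were examined through lists of their families and pathways. Over all genes, 0.668% passed as higher and 0.0163% as lower. Before adjustment, 5.16% of all genes were higher and 2.87% lower at a p under 0.05. These shares stand beside the counts of each list below. Of 32 measured tetraspanin genes, 0 passed in either direction (limma), and before adjustment 2 had a p under 0.05, both lower. Their median log2 difference was 0.0022 and the differences ran from -0.24 to 0.17. The tetraspanins of leukocytes, CD37 and CD53, had differences of 0.0060 and 0.05. These names were chosen after their values were seen. TSPAN33, a tetraspanin of erythroid and B cells that promotes maturation of the protease ADAM10, had log2 values of 5.10, 4.96 and 5.01 in CD47- EVs, against 5.24, 5.31 and 5.25 in WT EVs. All its CD47- arrays lay below its WT arrays, and the difference of -0.24 did not pass (adjusted p = 0.282 from limma). TSPAN16 had a difference of -0.17 (adjusted p = 0.543 from limma).

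Of 13 measured partners of tetraspanins, such as integrins and the immunoglobulin superfamily protein IGSF8, 0 passed, and 1 had a p under 0.05 before adjustment. This was CD3E, a subunit of the T cell receptor complex, with a difference of 0.37 (adjusted p = 0.112 from limma), which passed after the centering on olfactory receptor genes (adjusted p = 0.0198) and among the genes above their median (adjusted p = 0.044). ITGB1, the integrin beta-1 subunit, had a difference of -0.16 (adjusted p = 0.714 from limma).

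Of 28 measured ESCRT and ESCRT-associated genes, 0 passed, 2 had a p under 0.05 before adjustment (both higher), and 19 had a difference above 0. Over all 18417 genes, 5.16% were higher at this unadjusted p, and 9444 had a difference above 0. CHMP2A, an ESCRT-III subunit that takes part in the scission of vesicle necks, had log2 values of 6.02, 5.68 and 5.54 in CD47- EVs, against 5.46, 5.41 and 5.36 in WT EVs. Its groups did not overlap, and the difference of 0.33 did not pass (adjusted p = 0.326 from limma) and was 0.20 without CD47- replicate 1. VPS36, an ESCRT-II subunit, had a difference of 0.19 (adjusted p = 0.484 from limma), at a mean above 5.92% of the gauge genes. The other 5 listed genes, PDCD6IP, PDCD6, CHMP3, CHMP4A and VTA1, had no probe set of a single symbol here.

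Of 11 measured genes of the syntenin, syndecan and ALIX route, 0 passed, with 2 higher at an unadjusted p under 0.05, SDCBP and ARF6. The share of all genes higher at this p was 5.16%. The small GTPase ARF6, which acts with phospholipase D2 in the budding of syntenin exosomes, had a difference of 0.19 (adjusted p = 0.542 from limma), with CD47- arrays at 5.62, 5.40 and 5.44 and WT arrays at 5.28, 5.32 and 5.28. The groups did not overlap. The median difference of the list was 0.08, beside 0.0029 over all genes.

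Of 6 measured flotillin and caveolin genes 0 passed, and 0 had an unadjusted p under 0.05. FLOT2, the partner of FLOT1 in its complexes, had a difference of -0.05 (adjusted p = 0.942 from limma), and CAV1, which coats caveolae, of -0.13 (adjusted p = 0.895 from limma). FLOT2 was named after its value was seen. Of 20 measured genes of sphingomyelinases and ceramide metabolism 0 passed, and 1 had a p under 0.05 before adjustment. This was SMPD4, another neutral sphingomyelinase (difference 0.19, adjusted p = 0.583 from limma), and the ceramide synthase CERS5 had a difference of -0.15 (adjusted p = 0.715 from limma).

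The list of Rab GTPases and fusion factors of EV release held 1 gene that passed. Of its 34 measured genes, 1 was higher and 0 were lower in CD47- EVs, where 0.668% of all genes were higher and 0.0163% lower. Before adjustment, 3 were higher at a p under 0.05 and 0 lower, where 5.16% of all genes were higher and 2.87% lower. RAB7A, the Rab GTPase of late endosomes that directs them to lysosomes, had log2 values of 5.61, 5.77 and 5.71 in CD47- EVs, against 5.36, 5.00 and 4.95 in WT EVs. The groups did not overlap and WT replicate 1 lay nearest to the CD47- arrays. The log2 difference was 0.59 (standard error 0.10, adjusted p = 0.0218 from limma). This probe set lay above 47.9% of the gauge genes, and so below their median.

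The other probe set of RAB7A had a mean above 0.296% of the gauge genes and gave a difference of 0.12. RAB7A did not pass with the mean of both probe sets (difference 0.36, adjusted p = 0.0847 from limma), nor without CD47- replicate 2 or 3 or WT replicate 2 or 3, with adjusted p from 0.0891 to 0.132, nor with unshared variance (adjusted p = 0.547). RAB5C, a Rab GTPase of early endosomes, had a difference of 0.43 (adjusted p = 0.0947 from limma), and RAB11B, of recycling endosomes, of 0.35 (adjusted p = 0.162 from limma). Both were named after their values were seen. After the centering on olfactory receptor genes 3 genes of the list passed, RAB7A, RAB5C (adjusted p = 0.0342) and RAB11B (adjusted p = 0.0379). RAB5C also passed without CD47- replicate 2 (adjusted p = 0.034) and among the genes above the olfactory receptor median (adjusted p = 0.0353). Without CD47- replicate 3, WT replicate 2 or WT replicate 3, 0 genes of the list passed.

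**Figure D3:**
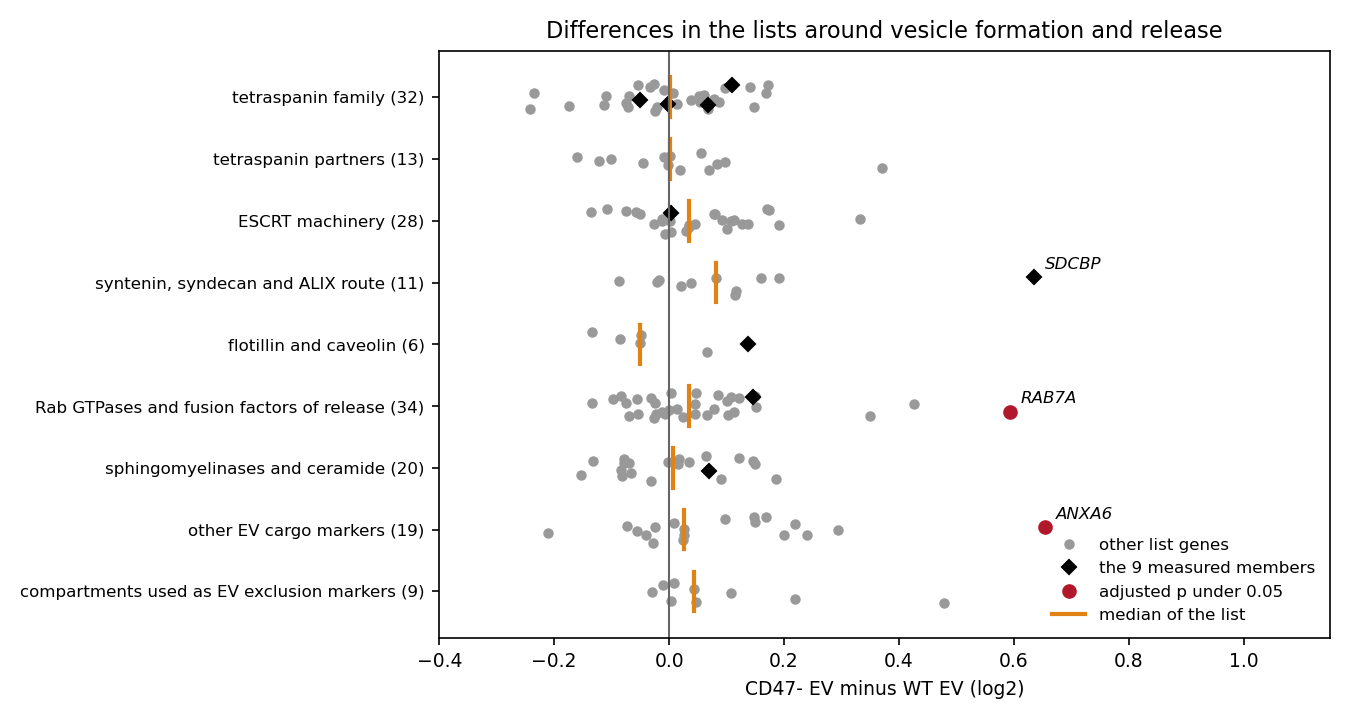
log2 difference between CD47- and WT EVs (horizontal axis) of each measured gene in 9 lists, with the number of measured genes in parentheses, list medians (orange) and the 9 measured vesicle genes (black diamonds). RAB7A at 0.59 and ANXA6 at 0.65 (red) passed at an adjusted p under 0.05, and SDCBP at 0.64 did not.

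Of 19 other genes whose proteins are common EV cargo, 1 passed as higher and 0 as lower (limma). Over all genes, 0.668% passed as higher and 0.0163% as lower. Before adjustment, 5.16% of all genes were higher and 2.87% lower at a p under 0.05. In this list it was reached by 4 higher genes and 1 lower one. Besides ANXA6 these were GNAS, a G protein subunit, LAMP1, a lysosomal membrane protein, and TFRC, the transferrin receptor, with differences of 0.29, 0.24 and 0.22, and the annexin ANXA2 with -0.21. These 4 names were chosen after their values were seen. ANXA6, which encodes a calcium-dependent membrane-binding annexin, had log2 values of 6.67, 6.81 and 6.96 in CD47- EVs, against 6.29, 6.26 and 5.92 in WT EVs. The groups did not overlap, and the difference was 0.65 (standard error 0.11, adjusted p = 0.015 from limma). ANXA6 did not pass without CD47- replicate 2 or 3 or without WT replicate 3 (adjusted p from 0.0605 to 0.0896), nor with unshared variance (adjusted p = 0.53). It lay above 86.4% of the gauge genes.

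The next list held 9 measured genes of the endoplasmic reticulum, Golgi, mitochondria and nucleus. Their proteins are used to judge how far EVs are free of other cell parts. Of these genes 0 passed, with 1 higher at an unadjusted p under 0.05, where 5.16% of all genes were higher. CANX, which encodes the endoplasmic reticulum chaperone calnexin, had log2 values of 5.73, 5.68 and 5.98 in CD47- EVs, against 5.19, 5.45 and 5.31 in WT EVs. The groups did not overlap, and the difference was 0.48 (adjusted p = 0.052 from limma). It passed after the centering on olfactory receptor genes (adjusted p = 0.0123), with a variance trend and robust estimation (adjusted p = 0.042) and among the genes above the olfactory receptor median (adjusted p = 0.0157). The chaperone CALR had a difference of 0.22 (adjusted p = 0.686 from limma). The part of RNA from such compartments in the values of the vesicle genes was not tested.

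Markers of the producing T cells and of other cells were set beside these results. Of 14 T cell identity genes 1 passed, CD1E, whose protein takes part in lipid presentation, with a difference of 1.16 (adjusted p = 2.16e-04 from limma). It did not pass with unshared variance (adjusted p = 0.391). Before adjustment, 4 of the 14 were higher at a p under 0.05 and 0 were lower, where 5.16% of all genes were higher. Besides CD1E these were CD3E, CD3G and CD3D, with differences of 0.37, 0.34 and 0.28 (adjusted p = 0.112, 0.172 and 0.441 from limma). CD3G and CD3D were named after their values were seen. Of the 7 platelet, 5 B cell, 5 monocyte, 6 epithelial and 3 erythroid marker genes measured, 0 passed or had an unadjusted p under 0.05. Without CD47- replicate 2, 1 of them passed, EPCAM, an epithelial adhesion protein. Its log2 values were 4.14, 5.16 and 3.92 in CD47- EVs, against 4.70, 4.57 and 4.61 in WT EVs, with CD47- replicate 2 above and the other CD47- arrays below all WT arrays. Its difference was -0.22 with all arrays (adjusted p = 0.907 from limma) and -0.60 without CD47- replicate 2 (adjusted p = 0.0206 from limma), and it was named after its values were seen. It lay above 20.1% of the gauge genes. The markers with the smallest p in each of these lists had differences of -0.11 for TREML1 and -0.08 for PF4, -0.16 for CD79A and 0.13 for MS4A1, -0.05 for LYZ and 0.03 for S100A9, -0.14 for CDH1 and 0.14 for KRT8, and 0.14 for ALAS2 and -0.10 for HBB. The part of the higher summed T cell values in the results was not tested.

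**Figure D4:**
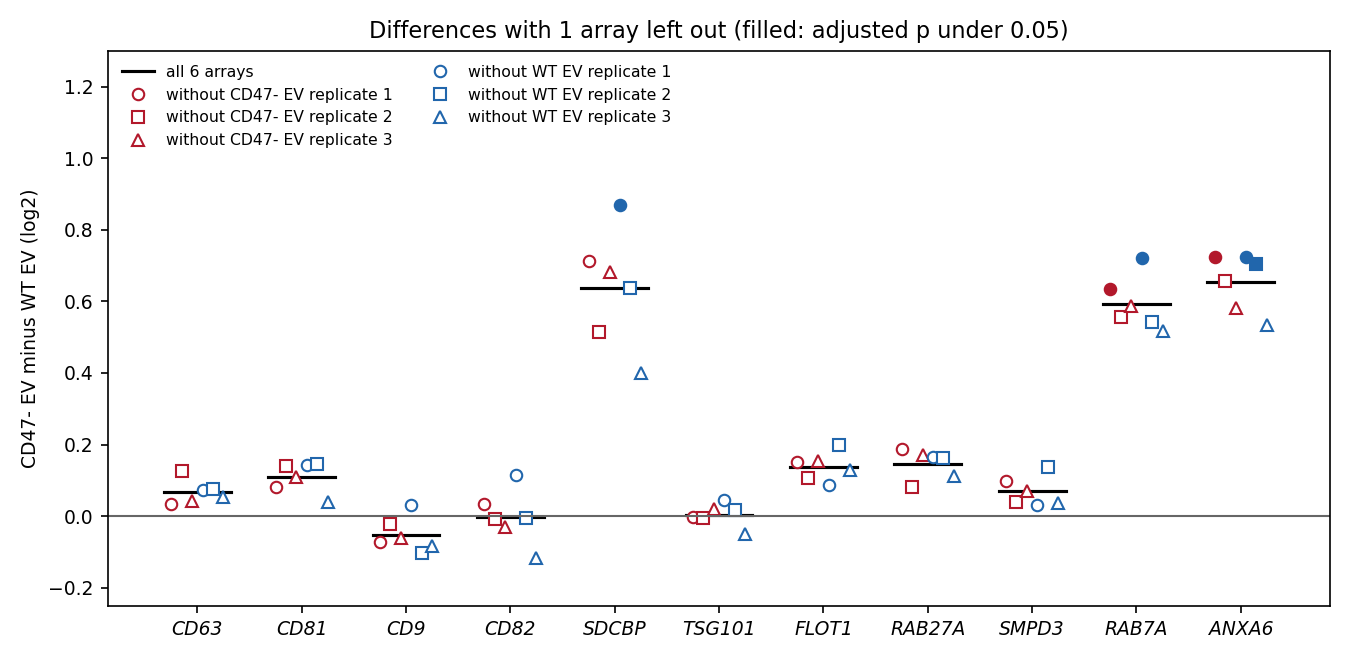
log2 difference between CD47- and WT EVs (vertical axis) of the 9 measured vesicle genes and of RAB7A and ANXA6, with all 6 arrays (black bar) and with 1 array left out (symbols, filled where the adjusted p was under 0.05). SDCBP runs from 0.40 without WT replicate 3 to 0.87 without WT replicate 1, and CD9, CD82 and TSG101 lie on both sides of 0.

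The size of a difference moved with single arrays for every member, while its sign depended on them for some members and not for others. With 1 array left out, CD63 stayed between 0.03 and 0.13, CD81 between 0.04 and 0.15, FLOT1 between 0.09 and 0.20, RAB27A between 0.08 and 0.19 and SMPD3 between 0.03 and 0.14, all above 0. The differences of CD9, CD82 and TSG101 changed sign when 1 array was left out. Without WT replicate 1, SDCBP was the 1 member that passed, and with any other single array left out 0 members passed.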

How the data were processed

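RNA of 3 CD47- and 3 WT EV preparations was hybridized to Affymetrix human gene arrays, 1 array each, with groups and replicate numbers from the submitters' labels. The deposited values are log2 values that the authors made with RMA in Affymetrix Expression Console (version not given in the sources used here). This procedure corrects background, normalizes by quantiles and joins the probes of a probe set. It can hide a change shared by most genes and compresses differences of dim probe sets. Depth has no counterpart here, and the number of arrays limits the precision.

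Symbols came from the platform's annotation table. The 1754 probe sets that list several symbols and the 12083 that list none were not used, and for the 769 genes with more than 1 probe set the brightest by mean stood for the gene. The contrast of CD47- over WT EVs was fitted in limma 3.58.1 in R 4.3.3 (lmFit, eBayes), with Benjamini-Hochberg adjustment over all genes and a threshold of 0.05. The fit was tested on simulated data. The gauge was the protein-coding olfactory receptor genes.

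Members and lists were chosen with earlier results of these data known. Named were the members, in each list the genes that passed or else the 2 with the smallest p, and CD47. Genes with a profile most like a member were to be named only for members above the 95th percentile of the gauge, and 0 were. Same-numbered arrays did not deviate together, so the fit has no block. No sequence is printed, because the values are not tied to probe sequences here.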

Additional observations from a re-analysis of the deposited data

How the results depend on the processing

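The number of genes that passed was 126. Centering each array on its gauge of olfactory receptor genes gave 244 and moved the median difference over all genes to 0.06, against 0.0029 without it. The number was 205 at an adjusted p under 0.1. It fell to 1 with a per-gene linear model with unshared variance, where 0 members passed. With 1 array left out, it lay between 54 (without WT replicate 3) and 101, with 59 without CD47- replicate 3 and 79 without CD47- replicate 2. The number of members that passed, 0, was 1 after the centering and from 0 to 1 with 1 array left out. A fit with the replicate number as a block called 109 genes and 0 members, and the deviations of same-numbered arrays correlated with r of 0.02, -0.02 and -0.04. After the centering the differences of CD9, CD82 and LYZ were 0.010, 0.060 and 0.010, and with array weights that of TSG101 was -0.0081. With 1 array left out, the difference ran from -0.10 to 0.032 for CD9, from -0.12 to 0.12 for CD82, from -0.049 to 0.044 for TSG101, from -0.088 to 0.091 for CD47, from -0.028 to 0.14 for S100A9 and from -0.18 to 0.0032 for HBB. None of these passed under any alternative. The filter on dim genes left out SDCBP, TSG101, FLOT1, RAB27A and SMPD3, which have no value there. With markers of other cell types as the gauge, the members lay above 23.1% to 84.6% of the gauge genes, against 26.3% to 81.4% of the olfactory receptor genes. The cause of these changes was not tested. Levels near the gauge limit what the 5 dimmer members can show.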
